A study of Mus musculus with 12 samples.

Results

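The genes Atm, Atr, Chek1, Chek2, Trp63, Brca1, Brca2 and Msh6 act in the response of the oocyte to damaged DNA. They were chosen by name and read from the rows of their Ensembl identifiers, and they make up 8 of the 55573 genes counted. Every member had counts in each of the 12 libraries, and all 8 passed the filter on low counts in every comparison. When DNA breaks or a replication fork stalls, the sensor kinases ATM and ATR phosphorylate the checkpoint kinases CHK2 and CHK1, which hold the cell cycle and pass the signal on to repair factors and to proteins of the p53 family. In the mouse ovary, damaged oocytes of the resting pool are removed largely through TAp63, a relative of p53 that CHK2 activates. Fully grown oocytes wait in prophase of the meiotic division, transcribe little by the end of growth and depend on stored mRNA.

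The data are poly(A) RNA-seq libraries of single GV oocytes, which are fully grown oocytes with an intact nuclear envelope (germinal vesicle). Per the methods, they came from a healthy B6D2_F1 female 12 weeks old and were collected in M2 medium with milrinone, an inhibitor that keeps the oocytes in arrest. None of the groups carried a mutation or a further treatment. Whole oocytes were amplified for 10, 14 or 18 cycles, and lysates diluted to 1/2, 1/4 or 1/8 of an oocyte were amplified for 18 cycles, with 2 libraries in each of the 6 groups. The whole-oocyte libraries came from 6 oocytes and the fractions from the lysates of 2 others. An equal amount of ERCC spike-in RNA, a mix of 92 synthetic transcripts, was added to every library after dilution. The design varies the cycle number and the amount of starting RNA, and the paper made the fractions to illustrate normalization by ERCC. Replicates are separate whole oocytes, or fractions from the lysates of 2 oocytes, all of the same female. The p-values here thus measure the spread between oocytes and libraries and not between animals. The tests treat the fraction libraries as independent, though all of them come from 2 oocytes. The labels and the methods state no batch, so the effects of cycles, of the oocyte and of the preparation cannot be told apart.

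Counts on genes were 11597144 and 9189672 at 10 cycles, then 12349577 and 13806199 at 14 cycles, with 3017069 and 1706478 at 18 cycles. The fractions had 4024670 and 3598549 (1/2), 4027907 and 5049518 (1/4), and 11404262 and 1702062 (1/8). The 18-cycle whole oocytes also stood apart in their spike-in share, with 1873 and 1158 gene counts for each ERCC count, against 323 and 360 at 10 cycles and 347 and 354 at 14 cycles. For the fractions the ratio was 439 and 344 (1/2), 214 and 174 (1/4), and 49.3 and 46.5 (1/8).

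The oocyte label held in all libraries. All 9 oocyte markers (Zp1, Zp2, Zp3, Gdf9, Bmp15, Nlrp5, Ooep, Oosp1 and Dppa3) were counted in every library, with Gdf9, a growth factor secreted by the oocyte, or Ooep as the most abundant. Their summed level was 24188 and 21835 CPM (counts scaled to a fixed total of counts on genes) at 10 cycles, then 24106 and 25305 at 14 cycles, with 7042 and 5861 at 18 cycles. In the fractions the sum was 9089 and 8762 CPM (1/2), 12928 and 13861 (1/4), and 19433 and 20047 (1/8). The oocyte markers thus took a smaller share of the counts in whole oocytes at 18 cycles than in any other group. The 10 granulosa and cumulus markers summed to 134 and 83.6 CPM at 10 cycles, then 105 and 145 at 14 cycles, with 59.7 and 26.4 at 18 cycles, with Nr5a2 the most abundant. In the fractions they summed to 33.8 and 30.6 CPM (1/2), 57.4 and 58.0 (1/4), and 77.9 and 71.1 (1/8), led by Nr5a2 or Cyp19a1. The marker Fshr had 0 counts in all 6 of these libraries and in both at 10 cycles, but 4 and 13 at 14 cycles. Other markers of this list differed between replicates. Inha had 3 and 396 counts at 10 cycles and 45 and 441 at 14 cycles. Amh had 1 and 71 counts at 10 cycles and 4 and 67 at 14 cycles. The 8 theca, stroma, blood and immune cell markers summed to between 0.248 and 35.4 CPM, the highest in replicate 1 at 10 cycles, where Star was the most abundant. In the 18-cycle whole oocytes, 7 of these 8 markers had 0 counts. Any part of these shares in the results that follow was not tested.

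Levels of different genes can be compared only per length, so CPM was divided by the merged exon length in kb. At 10 cycles, Chek1 was the most abundant of the 8, with 141 ± 6.19 CPM per kb (SD, n = 2), followed by Msh6 with 46.1 ± 1.49, Brca2 with 32.3 ± 7.23 and Brca1 with 17.7 ± 0.116. These 4 levels did not overlap between neighbours in the order. Below them lay Atr with 3.03 ± 0.217, Trp63 with 3.02 ± 1.34, Atm with 2.31 ± 0.201 and Chek2 with 1.87 ± 0.0789 CPM per kb. The ranges of Atr and Atm lay within that of Trp63, and with the longest transcript in place of merged exons Atr came to 8.85 CPM per kb and Atm (2.43) fell just under Chek2 (2.46). Per kb of the longest transcript, the ranges of Brca2 (34.6 and 47.6) and Msh6 (46.0 and 48.2) overlapped as well. Among the 25175 genes with counts at 10 cycles, Chek1 stood at the percentile 98.8, Msh6 at 95.1, Brca2 at 92.5 and Brca1 at 86.8, and the other members lay between 58.4 (Chek2) and 64.4 (Atr). The grown oocyte thus held much more Chek1, Msh6 and Brca transcript per kb than transcript of the sensor kinases, Chek2 or Trp63. In whole oocytes at 18 cycles, Msh6 had the highest mean with 54.5 ± 5.96 CPM per kb and Chek1 came next with 39.5 ± 10.4. Atm was then the lowest of the 8, with 0.430 ± 0.208 CPM per kb.

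Between 10 and 14 cycles no difference was found for the 8 genes. Under edgeR's quasi-likelihood test 0 of 8 passed an adjusted p of 0.01 in either direction, beside 0% of the 17532 genes tested that were called lower and 0% called higher. DESeq2 also called 0 members, and 0 members had an unadjusted p under 0.05 by either tool. The log2 fold changes lay between -0.49 (Brca2) and 0.47 (Trp63).

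At 18 against 10 cycles, the members called lower with median ratio size factors were 2 of 8, Atm and Chek1, beside 10.8% of all genes, and 0 of 8 were called higher, beside 12.3% of all genes. The median log2 fold change of the 8 was -0.79, against -0.29 over all genes tested. Estimates were negative for 7 of 8 (all but Msh6) with median ratio size factors, but positive for all 8 with size factors from the ERCC molecules, which put the median of all genes at 1.96. Scaled by ERCC molecules, 3 members were called higher (Brca1, Brca2 and Msh6) and 0 lower, beside 47.6% of all genes higher and 0% lower. DESeq2 and TMM scaling each called 4 members lower (Atm, Atr, Brca1 and Chek1), beside 13.8% and 12.3% of all genes. Without replicate 2 at 10 cycles no member passed, with Atm at -1.97 and Chek1 at -1.47. The share of all genes called fell in that fit as well.

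Against 14 cycles the picture was similar. The members called lower at 18 cycles were 3 of 8 (Atm, Chek1 and Trp63), beside 10.7% of all genes, and 0 of 8 were called higher, beside 12.5%. Their median log2 fold change was -0.67, against -0.29 over all genes. Without either library at 14 cycles, or without replicate 2 at 18 cycles, Chek1 alone passed. The share of all genes called lower fell clearly without either library at 14 cycles, and slightly without replicate 2 at 18 cycles. Scaled by ERCC molecules, 4 members were called higher (Atr, Brca1, Brca2 and Msh6) and 0 lower, beside 47.9% of all genes higher and 0.0114% lower. Both comparisons share the libraries at 18 cycles.

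**Figure D1:**
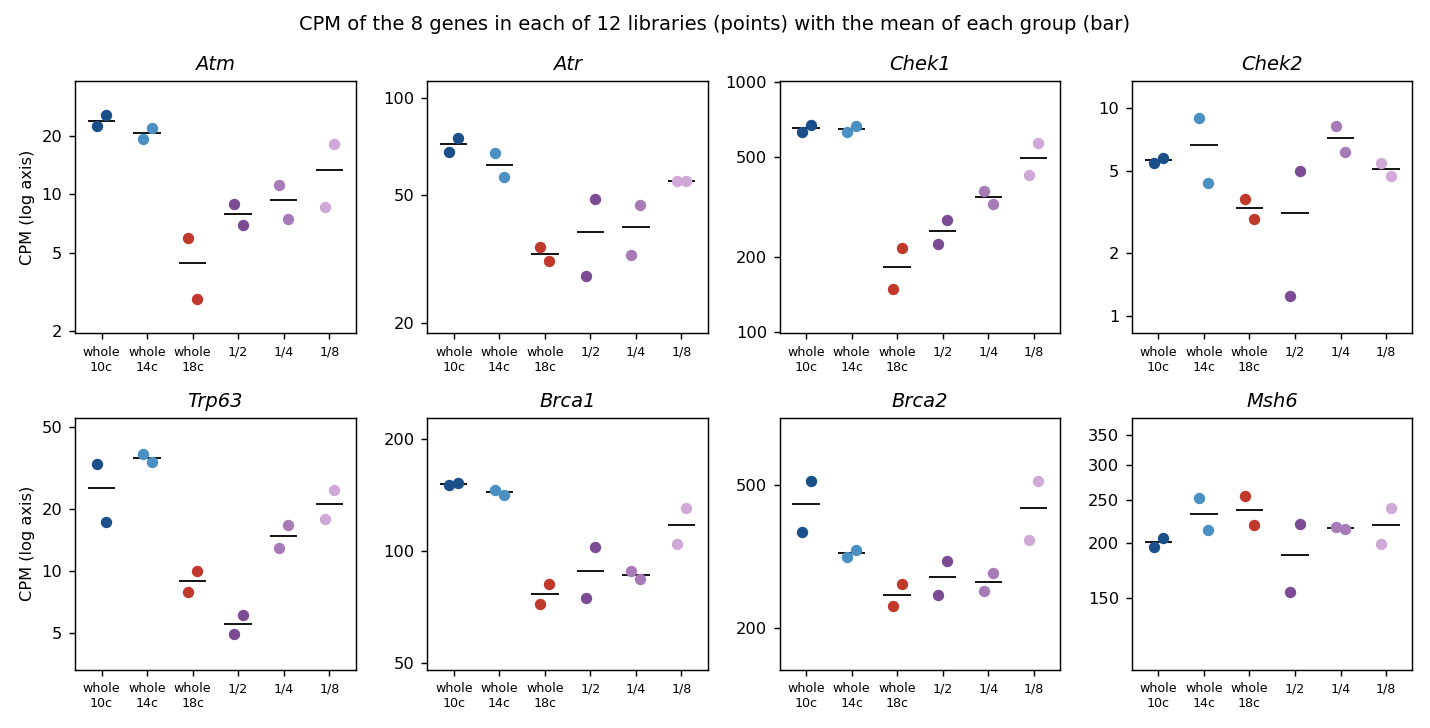
CPM (log axis, library size taken from counts on genes) of each of the 8 genes in the 12 libraries, with points for libraries and a bar for the mean of the 2 libraries of a group (10c, 14c and 18c are amplification cycles of whole oocytes; fractions had 18 cycles). Chek1 lies between 149 and 217 CPM in the 18-cycle whole oocytes and between 632 and 673 in the whole oocytes at 10 and 14 cycles, while Msh6 stays between 155 and 255 CPM in all libraries.

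Atm encodes the kinase that senses double-strand breaks (ENSMUSG00000034218, GRCm38 chromosome 9 from 53439149 to 53536740, minus strand, protein coding). Its level was 22.4 and 25.4 CPM at 10 cycles, then 19.3 and 21.8 at 14 cycles, with 5.97 and 2.93 at 18 cycles. The fractions had 8.94 and 6.95 CPM (1/2), 11.2 and 7.53 (1/4), and 8.59 and 18.2 (1/8). Atm was thus lowest in the 18-cycle whole oocytes, below every other library, where it rested on 18 and 5 counts. From 153 ± 19.2 normalised counts at 10 cycles (SD, n = 2) it fell to 33.5 ± 13.6 at 18 cycles, a log2 fold change of -2.10 with a standard error of 0.38 (edgeR, Benjamini-Hochberg adjusted p = 0.00178). Against 14 cycles the log2 fold change was -1.85 with a standard error of 0.38 (edgeR, Benjamini-Hochberg adjusted p = 0.00364). With ERCC size factors the estimates were 0.18 and 0.46, so the direction for Atm turned with these size factors, while per total ERCC count its mean at 18 cycles was 88.9% of that at 10 cycles, with 11.2 and 3.39 counts per 1000 ERCC counts in the libraries at 18 cycles. The call against 10 cycles was lost without replicate 1 at 10 cycles (adjusted p = 0.0101 by edgeR) or replicate 2 (adjusted p = 0.0172 by edgeR), and the call against 14 cycles without replicate 1 (0.0178) or 2 (0.0282) at 14 cycles or replicate 2 at 18 cycles (0.0135).

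Atr encodes the kinase that senses single-stranded DNA at stalled forks (ENSMUSG00000032409, chromosome 9 from 95857597 to 95951781, plus strand). It had 68.0 and 75.3 CPM (10 cycles), 67.4 and 56.8 (14 cycles) and 34.5 and 31.1 (18 cycles). The fractions had 27.8 and 48.6 CPM (1/2), 32.5 and 46.5 (1/4), and 55.2 in both libraries of 1/8. The 18-cycle whole oocytes lay below the other whole oocytes, within the range of 1/2. The log2 fold change from 10 to 18 cycles was -0.87 with a standard error of 0.23, just short of the threshold (edgeR, Benjamini-Hochberg adjusted p = 0.0131). It passed with DESeq2, adjusted p = 0.00392 over all genes, and turned to 1.37 with ERCC size factors. Of the exon bases of Atr, 3.07% overlap the antisense gene 1700065D16Rik and 1.96% the antisense gene Gm16794, whose reads cannot be told apart from those of Atr in libraries without strand. These antisense genes together had few counts, 117 and 390 over the 12 libraries. Atr exceeded Atm per kb of merged exons in every library, by a ratio between 1.14 and 4.64, the highest in replicate 2 of the 18-cycle whole oocytes. Per kb of the longest transcript the gap was wider, with 8.85 for Atr and 2.43 for Atm at 10 cycles.

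Chek1 encodes CHK1, the kinase downstream of ATR (ENSMUSG00000032113, chromosome 9 from 36708482 to 36727065, minus strand). Its level was 632 and 673 CPM at 10 cycles, then 633 and 665 at 14 cycles, with 149 and 217 at 18 cycles. The fractions had 225 and 282 CPM (1/2), 365 and 327 (1/4), and 423 and 572 (1/8). The CPM of Chek1 thus fell into a row of groups that did not overlap, from whole oocytes at 18 cycles through 1/2, 1/4 and 1/8 up to whole oocytes at 10 and 14 cycles, and the last 2 groups overlapped. From 4171 ± 347 normalised counts at 10 cycles it fell to 1427 ± 494 at 18 cycles (SD, n = 2 each). The log2 fold change was -1.56 with a standard error of 0.25 (edgeR, Benjamini-Hochberg adjusted p = 0.000900), and -1.51 with a standard error of 0.25 against 14 cycles (edgeR, Benjamini-Hochberg adjusted p = 0.00104). With ERCC size factors these estimates became 0.59 and 0.66, neither past the threshold. The call against 10 cycles was lost without replicate 2 at 10 cycles (edgeR, adjusted p = 0.0136).

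Chek2 encodes CHK2, the kinase downstream of ATM (ENSMUSG00000029521, chromosome 5 from 110839979 to 110874145, plus strand). It was rare, with 5.43 and 5.77 CPM at 10 cycles, 8.99 and 4.35 at 14 cycles, 3.65 and 2.93 at 18 cycles, 1.24 and 5.00 in 1/2, 8.19 and 6.14 in 1/4, with 5.44 and 4.70 in 1/8. The 18-cycle values lay under those of the other whole oocytes, but within the range of 1/2. These levels rest on between 5 and 111 counts per library. The log2 fold change from 10 to 18 cycles was -0.49 with a standard error of 0.56 (edgeR, Benjamini-Hochberg adjusted p = 0.514), an estimate smaller than its standard error. Per kb, Chek1 exceeded Chek2 in every library, by a ratio between 26.5 and 117.

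Trp63 encodes p63, whose TA form is the effector that removes damaged oocytes (ENSMUSG00000022510, chromosome 16 from 25683763 to 25892102, plus strand). Its level was 33.3 and 17.4 CPM at 10 cycles, then 37.2 and 34.1 at 14 cycles, with 7.95 and 9.96 at 18 cycles. The fractions had 4.97 and 6.11 CPM (1/2), 12.9 and 16.8 (1/4), and 17.9 and 24.7 (1/8). Trp63 was lowest in 1/2, next in the 18-cycle whole oocytes, and the libraries at 10 cycles differed from each other more than those at 14 cycles. From 222 ± 16.5 normalised counts at 14 cycles it fell to 69.4 ± 16.9 at 18 cycles, a log2 fold change of -1.72 with a standard error of 0.38 (edgeR, Benjamini-Hochberg adjusted p = 0.00538). Against 10 cycles the log2 fold change was -1.26 with a standard error of 0.38, short of the threshold (edgeR, Benjamini-Hochberg adjusted p = 0.0260). Under ERCC scaling the estimates were 0.52 against 14 cycles and 1.02 against 10 cycles. The call against 14 cycles was lost when any 1 of the 4 libraries compared was left out, with adjusted p from edgeR of 0.0314 and 0.0212 without replicate 1 or 2 at 14 cycles, and 0.0591 and 0.0139 without replicate 1 or 2 at 18 cycles. Which promoter's transcripts were counted cannot be read from counts per gene.

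Brca1, a ubiquitin ligase subunit needed for repair by homologous recombination (ENSMUSG00000017146, chromosome 11 from 101488764 to 101551955, minus strand), had the closest replicates of the 8 at 10 cycles. It had 151 and 152 CPM at 10 cycles, 146 and 142 at 14 cycles, 71.9 and 81.5 at 18 cycles, 74.8 and 102 in 1/2, 88.4 and 84.2 in 1/4, with 104 and 130.4 in 1/8. The whole oocytes at 10 and 14 cycles lay above all libraries at 18 cycles. The log2 fold change from 10 to 18 cycles was -0.72 with a standard error of 0.20, short of the threshold (edgeR, Benjamini-Hochberg adjusted p = 0.0184). It turned to 1.49 with ERCC size factors (edgeR, Benjamini-Hochberg adjusted p = 0.00319).

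Brca2, which acts in repair by homologous recombination (ENSMUSG00000041147, chromosome 5 from 150522630 to 150570329, plus strand), varied more between replicates. It had 371 and 510.1 CPM at 10 cycles, 315 and 329 at 14 cycles, 230.4 and 265 at 18 cycles, 248 and 307 in 1/2, 253 and 284 in 1/4, with 352 and 511 in 1/8. The lowest values were those of the 18-cycle whole oocytes, 1/2 and 1/4, and the range of 1/8 overlapped that of whole oocytes at 10 cycles. The log2 fold change was -0.57 with a standard error of 0.23 from 10 to 18 cycles and -0.07 with a standard error of 0.23 from 14 to 18 cycles. Neither passed the threshold, and with ERCC size factors both were positive, 1.60 and 2.14, and passed it.

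Msh6, which recognises mismatched bases (ENSMUSG00000005370, chromosome 17 from 87975062 to 87990892, plus strand), was the member whose estimate did not turn negative at 18 cycles under any size factors tried. It had 196 and 205 CPM at 10 cycles, 252 and 213 at 14 cycles, 255 and 219 at 18 cycles, 155 and 219.8 in 1/2, 216 and 215 in 1/4, and 198 and 239 in 1/8. Whole oocytes at 10 cycles lay just under those at 14 and 18 cycles, and the ranges of 1/2 and 1/8 overlapped with both. The log2 fold change from 10 to 18 cycles was 0.50 with a standard error of 0.19 (edgeR, Benjamini-Hochberg adjusted p = 0.0669), and 2.75 with ERCC size factors. Msh6 shares 34 exon bases with Fbxo11 on the opposite strand, 0.782% of its exon bases. The ratio of Chek1 to Msh6 within a library does not depend on the scaling. Per kb it was 3.03 and 3.08 at 10 cycles, then 2.36 and 2.93 at 14 cycles, with 0.548 and 0.933 at 18 cycles. The fractions had ratios of 1.36 and 1.20 (1/2), 1.58 and 1.43 (1/4), and 2.01 and 2.24 (1/8). The ratio was thus lower in the 18-cycle whole oocytes than in all other libraries. Msh6 was the more abundant of the pair in both per kb of merged exons, but per kb of the longest transcript only in replicate 1, and Chek1 led in replicate 2 with 57.3 against 51.4 CPM per kb.

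**Figure D2:**
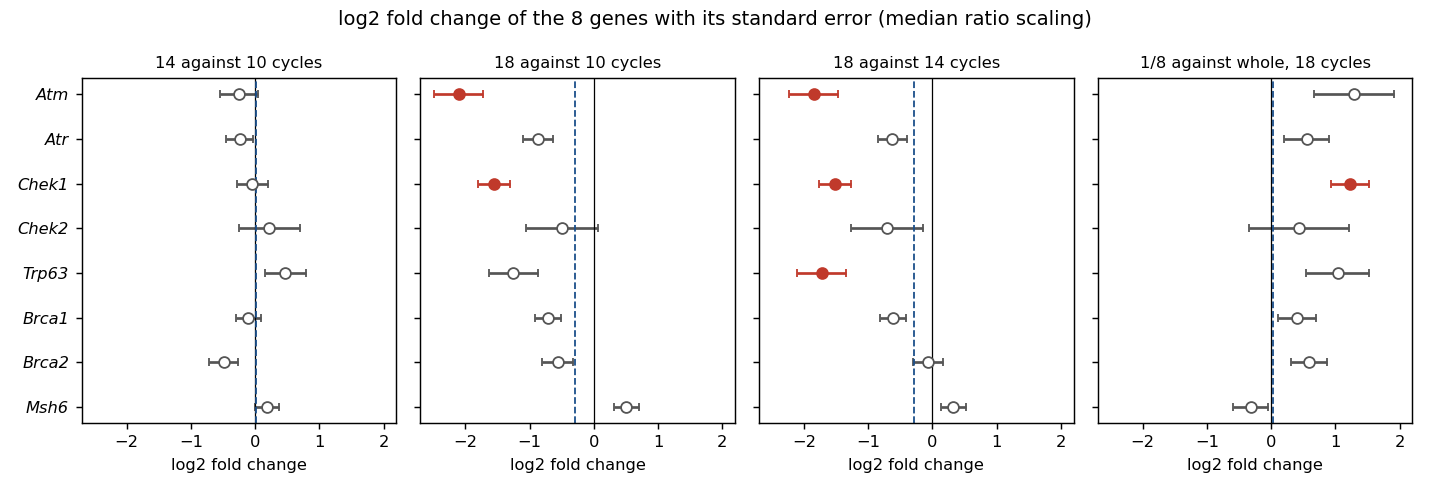
Log2 fold changes (points, x axis) with their standard errors (bars) of the 8 genes from edgeR with median ratio size factors. Filled red points pass an adjusted p of 0.01 and the dashed line is the median of all genes tested. At 18 cycles the point of Atm lies at -2.10 against 10 cycles and that of Msh6 at 0.50, and in 1/8 the filled point is Chek1 at 1.23. With ERCC size factors all 8 points against 10 or 14 cycles would be above 0 at 18 cycles.

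The fractions were compared with whole oocytes at the same 18 cycles, with median ratio size factors to compare composition. In 1/2, 0 of 8 members were called lower, beside 0.0406% of the 14788 genes tested, and 0 of 8 higher, beside 0.0811%. In 1/4, 0 of 8 were lower, beside 0.426%, and 0 of 8 higher, beside 0.0338%. DESeq2 called 0 members in both fractions, where 3 members had no adjusted p from it, and an unadjusted p under 0.05 (edgeR) was found for 0 members in 1/2 and for 1 in 1/4, Chek1. In 1/8, Chek1 was the 1 of 8 members called higher, beside 7.06% of all genes, and 0 of 8 were called lower, beside 8.69%. The median log2 fold change of the 8 in 1/8 was 0.57, against 0.03 over all genes, and 7 of 8 estimates were positive, with Msh6 at -0.32 the exception. Against all 6 whole oocytes the estimates of Atm (-0.32), Atr (-0.01), Brca1 (-0.08), Chek2 (-0.05) and Trp63 (-0.13) turned negative. The median over all genes in that fit was -0.16, and of these genes only Atm lay below it. Every member had a negative estimate in 1/8 with ERCC size factors, as did 14500 of all 14788 genes tested, with a median of -4.92.

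Chek1 had 1674 ± 361 normalised counts in 1/8 and 716 ± 234 in whole oocytes at 18 cycles (SD over 2 libraries), giving a log2 fold change of 1.23 with a standard error of 0.30 (edgeR, Benjamini-Hochberg adjusted p = 0.00388). The estimates were 0.77 with a standard error of 0.29 in 1/4 (edgeR, Benjamini-Hochberg adjusted p = 0.194) and 0.42 with a standard error of 0.29 in 1/2 (edgeR, Benjamini-Hochberg adjusted p = 0.586). The call in 1/8 was lost without replicate 1 of the whole oocytes (log2 fold change 0.90, edgeR adjusted p = 0.0743) or replicate 2 of 1/8 (1.02, edgeR adjusted p = 0.0355). Against all 6 whole oocytes the log2 fold change was 0.04. Atm and Trp63, at 1.29 and 1.04 in 1/8 with standard errors of 0.62 and 0.49, did not pass (edgeR, Benjamini-Hochberg adjusted p = 0.129 and 0.121).

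In 1/8 against 1/2, the groups compared hold diluted lysates only, though the fit still takes in the whole oocytes at 18 cycles. All 8 estimates were positive, with a median of 0.50 against 0.04 over all genes, but those of Atm (-0.05), Chek2 (-0.09) and Msh6 (-0.14) could turn negative with 1 library left out. The members called higher were 0 of 8, beside 2.08% of all genes, and 0 of 8 were lower, beside 3.86% (edgeR; 2 members had an unadjusted p under 0.05, and DESeq2 called 0 and gave 1 member no adjusted p). The largest estimate was that of Trp63, 1.76 with a standard error of 0.49 (edgeR, Benjamini-Hochberg adjusted p = 0.0199), followed by Chek1 with 0.81 and a standard error of 0.29 (edgeR, Benjamini-Hochberg adjusted p = 0.0655). These values share the 1/2 and 1/8 libraries with the comparisons above. Per the methods, all fractions came from the lysates of 2 oocytes, and which libraries share an oocyte is not stated.

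Scaling by the ERCC molecules shows the amount of transcript relative to the spike-in. Chek1 had 279 and 252 counts per 1000 ERCC counts in whole oocytes at 18 cycles, 98.7 and 97.1 in 1/2, 78.3 and 56.8 in 1/4, and 20.9 and 26.6 in 1/8. Msh6 had 478 and 253 in whole oocytes at 18 cycles, 68.0 and 75.6 in 1/2, 46.4 and 37.3 in 1/4, and 9.76 and 11.1 in 1/8. Chek1 and Msh6, and also Atr, Brca1 and Brca2, were lower with each step of dilution, without overlap between groups. Most genes tested with ERCC size factors did not overlap with whole oocytes at 18 cycles either. They were 11801 of 14788 in 1/2, 12863 in 1/4 and 13362 in 1/8. Trp63 did not follow the steps, with 2.18 and 2.10 in 1/2 and higher values of 2.77 and 2.92 in 1/4, the ranges of Chek2 in 1/2 and 1/4 overlapped, and those of Atm overlapped between whole oocytes and 1/2 and between 1/2 and 1/4. Relative to the mean of the whole oocytes at 18 cycles, Chek1 came to 36.9% in 1/2, 25.4% in 1/4 and 8.94% in 1/8, and Msh6 to 19.6%, 11.4% and 2.86%. For comparison, whole oocytes at 10 cycles held 204.5 and 242 counts of Chek1 and 63.3 and 73.8 of Msh6 per 1000 ERCC counts. Both genes were thus higher in both libraries of the 18-cycle reference than at 10 cycles. The means of the reference were 119% (Chek1) and 533% (Msh6) of those at 10 cycles.

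With ERCC size factors the members called lower were 6 of 8 in 1/2, beside 52.0% of all genes, 6 of 8 in 1/4, beside 69.7%, and 8 of 8 in 1/8, beside 87.5%. Called higher were 0 of 8 in each fraction, beside 0% of all genes. The members not called in 1/2 and 1/4 were Atm and Chek2. The median log2 fold change of all 8 members was -1.86 in 1/2 and -2.38 in 1/4, against -1.997 and -2.69 over all genes. In 1/8 the estimates ran from -5.30 for Msh6 to -3.66 for Chek1 (standard errors 0.54 and 0.49), with a member median of -4.38 against -4.92 for all genes, and only Msh6 lay below the latter. In 1/2 only Msh6 and Trp63 stayed called without replicate 1 of the whole oocytes, and only Msh6 without replicate 2 of 1/2. The calls of Atr and Chek1 in 1/2 were lost without replicate 1 of 1/2 (log2 fold changes -1.75 and -1.62). In each of these fits the share of all genes called lower in 1/2 also fell below 52.0%. In 1/4 the call of Trp63 was lost without replicate 1 of the whole oocytes (edgeR, adjusted p = 0.0210), replicate 1 of 1/4 (0.0402) or replicate 2 (0.0427), and that of Chek1 without replicate 2 of 1/4 (0.0201). In 1/8 the call of Atm was lost without replicate 1 of the whole oocytes (edgeR, adjusted p = 0.0182). Against all 6 whole oocytes 0 members were called in 1/2 and 0 in 1/4, as were 0 of all 18041 genes tested, while 8 of 8 stayed called in 1/8, beside 47.2% of all genes. The reference of 2 whole oocytes at 18 cycles rested on only 1611 and 1474 ERCC counts.

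**Figure D3:**
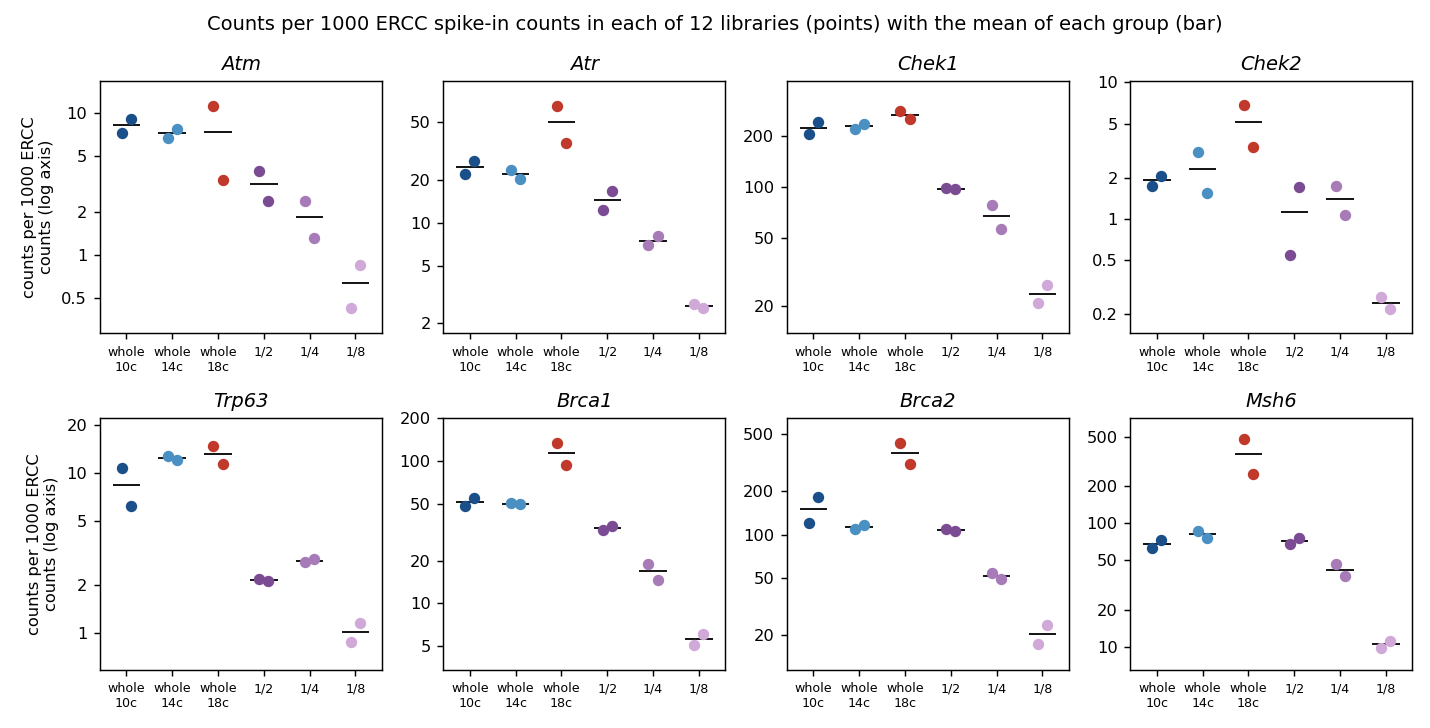
Counts per 1000 ERCC spike-in counts (log axis) of each of the 8 genes in the 12 libraries, with points for libraries and a bar for the mean of the 2 libraries of a group. In 1/8 the points of Chek1 lie at 20.9 and 26.6 and those of Msh6 at 9.76 and 11.1, below all other libraries.

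Other genes of the damage response were listed in 4 groups, 51 genes in all. Of the 16 checkpoint sensors and mediators, all were tested between 10 and 18 cycles, and 2 were called lower and 3 higher, beside 10.8% of all genes lower and 12.3% higher, with a median log2 fold change of 0.07 against -0.29 over all genes. Under ERCC scaling 0 of the 16 were lower and 12 higher, beside 47.6% of all genes higher. H2afx, the histone variant phosphorylated at breaks, rose to 4693 ± 1974 normalised counts from 514 ± 64.7 (SD over 2 libraries), giving a log2 fold change of 3.19 with a standard error of 0.30 (edgeR, Benjamini-Hochberg adjusted p = 8.43e-05). Etaa1, an activator of ATR, rose by 1.74 on the log2 scale (edgeR, Benjamini-Hochberg adjusted p = 0.000218). Mdc1, the scaffold that binds phosphorylated H2AX, fell by 1.38 on the log2 scale with median ratio size factors but had an estimate of 0.98 with ERCC size factors (edgeR, Benjamini-Hochberg adjusted p = 0.00611 with the median ratio). Its call was lost without either library at 10 cycles or replicate 2 at 18 cycles.

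Of the 13 checkpoint effectors and cell death genes, 11 were tested, and 3 were called lower and 5 higher at 18 cycles, with a median log2 fold change of 0.60, beside 10.8% of all genes lower and 12.3% higher and their median of -0.29. The ERCC size factors gave 0 lower and 6 higher, beside 47.6% of all genes higher, and medians of 2.79 for the list and 1.96 for all genes. Cdkn1a, the inhibitor of cyclin-dependent kinases induced by p53, fell to 5.98 ± 5.08 normalised counts from 103 ± 36.9, a log2 fold change of -4.36 with a standard error of 0.67 (edgeR, Benjamini-Hochberg adjusted p = 0.000727). It stayed negative with ERCC size factors at -2.19, no longer past the threshold. With 1 library left out its estimate ran from -5.34 to -3.41, and its call was lost without replicate 1 at 18 cycles (-3.41). Bax, which permeabilises mitochondria in cell death, rose to 651 ± 135 from 93.1 ± 6.72 normalised counts, a log2 fold change of 2.80 with a standard error of 0.28 (edgeR, Benjamini-Hochberg adjusted p = 9.19e-05). Ppm1d, the phosphatase that ends checkpoint signalling, rose by 2.54 on the log2 scale (edgeR, Benjamini-Hochberg adjusted p = 5.01e-05).

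Of the 14 homologous recombination genes, 2 were called lower and 1 higher, with a median log2 fold change of -0.24, beside 10.8% and 12.3% of all genes and their median of -0.29. With ERCC size factors 0 were lower and 11 higher, beside 47.6% of all genes higher, and the medians were 2.01 for the list and 1.96 for all genes. Against 14 cycles the median of the list was 0.10, with 2 called lower and 0 higher, beside 10.7% and 12.5% of all genes and their median of -0.29. The helicase gene Brip1 and the recombination gene Xrcc3 fell by 1.38 and 1.32 on the log2 scale with median ratio size factors and had estimates of 0.79 and 0.93 with ERCC size factors. The call of Brip1 was lost without either library at 10 cycles, and that of Xrcc3 without replicate 1 at 10 cycles or replicate 1 at 18 cycles. Bard1, the partner of BRCA1, rose by 1.04 on the log2 scale, and its adjusted p lay above the threshold when any 1 of the 6 libraries was left out. The median of the 8 mismatch repair family genes was -0.71, against -0.29 over all genes, and 1.54 with ERCC size factors, against 1.96.

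In 1/8 against whole oocytes at 18 cycles several of these genes took the opposite sign in comparisons that share the 18-cycle whole oocytes. H2afx fell by 2.21, Cdc25a, the phosphatase that CHK1 restrains, by 2.19, Ppm1d by 1.93, Bax by 1.85 and Etaa1 by 1.47 on the log2 scale (median ratio). Brip1 rose by 1.60 and Xrcc3 by 1.31 on the log2 scale with the median ratio, whereas with ERCC size factors they fell by 3.30 and 3.61. By list, 2 sensors and mediators of 15 tested and 3 effectors of 10 tested were called lower and 0 higher, beside 8.69% of all genes lower and 7.06% higher. Of the 14 homologous recombination genes 2 were called higher and 0 lower, and 0 of the 8 mismatch repair genes were called (2 had an unadjusted p under 0.05 by edgeR, and DESeq2 called 0). With ERCC size factors, 15 of 15 sensors and mediators and 9 of 10 effectors were called lower. So were 14 of 14 homologous recombination genes and 8 of 8 mismatch repair genes, beside 87.5% of all genes. Against all 6 whole oocytes with the median ratio, 0 of all 18041 genes tested were called, and so 0 of these lists. The call of Bax was lost without replicate 2 of 1/8, that of Brip1 without replicate 1 of the whole oocytes, and that of Xrcc3 without any 1 of the 8 libraries.

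The 8 members share features that were not used to choose them. The GC content of the longest transcript lay between 40.8% (Atr) and 48.9% (Msh6), and all 8 were below the median of 49.0% over the 17513 genes tested with a value. Their median transcript length was 5969 bases against 2894 bases, and 7 of 8 were longer than the median gene. Over all genes tested, which do not vary independently of each other, the log2 fold change from 10 to 18 cycles and the GC content had a Spearman correlation of 0.37, and that of 1/8 against whole oocytes one of -0.40. Among the 6148 genes with a GC content of 40% to 50% and at least 2000 bases, the median log2 fold change at 18 against 10 cycles was -0.53, and 15.4% were called lower. The median was -0.79 for the members and -0.29 for all genes tested. The part of base composition in the results was not tested.

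For the members named here the pattern of log2(CPM + 1) over the 12 libraries was compared with those of the genes that had at least 10 counts in every library (8329 genes). Brca1 was most like Nup107 (Pearson r = 0.98) and Tmem74 (0.98), and Trp63 like the pseudogene Gm15681 (0.98) and mt-Nd1 (0.97). The pattern of Atm was nearest to Bfsp1 (0.97) and Tulp4 (0.96), that of Atr to Gm49496 and Ankrd28 (both 0.96), and that of Brca2 to Kdm6a (0.96) and Invs (0.94). Chek2 and Msh6 had looser neighbours, Adar (0.92) and Cap1 (0.89) for Chek2, and Lig4 (0.93) and Cyb561 (0.86) for Msh6. These libraries fall into groups of cycle number and fraction that all genes share, so the values are a description.

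The RefSeq table (GRCm38.p6, 300 bases around each gene start) held 7 of the 8 members, all but Trp63. The letters TTTCCCGC, TTTCGCGC, TTTGCCGC and TTTGGCGC, which spell the element bound by E2F cell cycle factors, were searched on both strands, a choice made after the sequences had been seen. They occurred in the promoters of 3 members, Brca2, Chek2 and Msh6, and in 2.27% of all 32851 promoters (744). All 7 promoters held more CpG dinucleotides than the median of 7, from 19 in Brca1 to 37 in Msh6. In Msh6 the match lies downstream of the RefSeq start. The windows of 30 bases around each match, with the match in capitals, lie on the plus strand. They are chr5:150522442-150522471 upstream of Brca2, chr5:110839820-110839849 upstream of Chek2 and chr17:87975054-87975083 across the GENCODE start of Msh6.
Brca2: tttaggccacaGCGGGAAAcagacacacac
Chek2: cgggattagccGCGGGAAAccaagacgtcg
Msh6: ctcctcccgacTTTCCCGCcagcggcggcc
The 3 members with a match differed in level and in their estimates at 18 against 10 cycles, which were -0.57, -0.49 and 0.50 with the median ratio and all positive with ERCC size factors. A match is a description of letters and not evidence of binding.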

How the data were processed

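Poly(A) RNA-seq libraries of single GV oocytes and of lysate fractions were analysed from the raw counts per gene and per ERCC (External RNA Controls Consortium) spike-in molecule that the authors deposited. The submitters' processing notes name cutadapt 2.5, STAR 2.7.2a and HTSeq 0.9.1, with the build mm10. The strand setting of the counting was not settled here, and the kit marks no strand. Gene counts ranged from 1702062 to 13806199 per library, so the smallest library limits the precision for rare transcripts. Between 6.90% and 10.8% of reads fell on no feature and stayed out of all totals. CPM is the count of a gene scaled to a fixed total of counts on genes.

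Symbols, coordinates and lengths came from GENCODE mouse release M21 (GRCm38), which lists 55480 of the 55573 genes. The filter kept genes that reached 5 counts in 2 or more libraries of a fit. The quasi-likelihood test of edgeR 4.0.16 (R 4.3.3) was used, p-values were adjusted over all genes by Benjamini-Hochberg, and calls were made under 0.01. The 6 whole oocytes formed the cycle fit and the 8 libraries at 18 cycles the fraction fit. Size factors were median ratios over genes or over ERCC molecules. On simulated counts for 1/8 against whole oocytes (median ratio), 39.5% of the 200 genes given a log2 change of 2 were called, with 0 false calls, so a gene not called may still differ. The alternatives were DESeq2 1.42.0, no filter, TMM, other uses of the ERCC counts, all 6 whole oocytes as the reference, the replicate number as a block, and leaving out each library.

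The 8 genes and the lists of pathway and marker genes were chosen with earlier results of these data known. Named pathway genes are, per list, the 3 with the largest change among those with an adjusted p under 0.01 and a mean of at least 50 normalized counts, in 18 against 10 cycles and in 1/8 against whole oocytes (median ratio). Genes of like pattern are the 2 with the highest Pearson r of log2(CPM + 1), among genes with at least 10 counts in every library.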

Additional observations from a re-analysis of the deposited data

How the results depend on the processing

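Left out 1 library at a time, 632 of 708 values kept direction and call, 57 were weaker, 17 reversed and 2 stronger. Leaving out a library leaves a lone sample in its group, whose spread is then assumed equal to that of the other groups. Among other settings 414 of 477 values stayed the same, 22 were weaker, 33 reversed and 8 stronger. At 18 against 10 cycles the share of all genes called lower was 13.8% with DESeq2, 9.22% with no filter and 12.3% with TMM. With any library left out it was below the 10.8% of the main fit. Member calls at 18 against 10 cycles were 4 with DESeq2, 4 with no filter (Atr and Trp63 added) and 4 with TMM, and between 0 and 3 with a library left out. They were between 1 and 3 for 18 against 14 cycles, 0 and 1 for 1/8 (median ratio), and 1 and 6 (1/2), 4 and 7 (1/4) or 7 and 8 (1/8) with ERCC size factors. With all 6 whole oocytes as the reference, 0 members were called in 1/8 with the median ratio, and 0 in 1/2 and 0 in 1/4 with ERCC size factors.

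ERCC size factors in the cycle fit reversed the log2 fold changes at 18 against 10 cycles to 0.18 (Atm), 1.37 (Atr), 1.49 (Brca1), 1.60 (Brca2), 0.59 (Chek1), 1.76 (Chek2), 1.02 (Trp63), 0.98 (Mdc1), 0.79 (Brip1) and 0.93 (Xrcc3). Against 14 cycles they became 0.46 (Atm), 1.64 (Atr), 1.62 (Brca1), 2.14 (Brca2), 0.66 (Chek1), 1.57 (Chek2) and 0.52 (Trp63). All 6 whole oocytes as the reference (median ratio) reversed those of 1/2 to -0.85 (Atm), -0.37 (Atr), -0.31 (Brca1), -0.12 (Brca2) and -0.76 (Chek1). In 1/4 it gave -0.73 (Atm), -0.44 (Atr), -0.46 (Brca1), -0.42 (Chek1) and -0.58 (Trp63), and in 1/8 -0.32 (Atm), -0.01 (Atr), -0.08 (Brca1), -0.05 (Chek2) and -0.13 (Trp63). The median over all genes with that reference was -0.29 in 1/2, -0.18 in 1/4 and -0.16 in 1/8.

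With a library left out, estimates crossed 0 for 14 against 10 cycles in Chek1 (-0.13 to 0.05) and Chek2 (-0.42 to 0.66), and for 18 against 14 cycles in Brca2 (-0.23 to 0.12). In 1/2 (median ratio) they did so in Atr (-0.24 to 0.50), Brca1 (-0.04 to 0.34), Brca2 (-0.05 to 0.29) and Chek2 (-1.39 to 0.52). In 1/4 it was Atr (-0.10 to 0.31), Brca1 (-0.13 to 0.18) and Brca2 (-0.20 to 0.14), and in 1/8 against 1/2 it was Atm (-0.05 to 1.05), Chek2 (-0.09 to 1.82) and Msh6 (-0.14 to 0.29).

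The longest transcript in place of merged exons changed the order of Atm and Chek2 at 10 cycles, and in other groups that of the less abundant members Atr, Trp63, Atm and Chek2. Reads on no feature, once added, lowered CPM, for Chek1 at 10 cycles to 581.6. Deviations of libraries with the same number correlated between -0.141 and 0.135, and neither labels nor methods pair them. With the number as a block, 2 members were called at 18 against 10 cycles, 3 at 18 against 14 cycles and 1 in 1/8, as without it. All groups hold 2 libraries from oocytes of 1 female, amplified reads carry no molecular identifiers, and antisense reads cannot be told apart.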

Other observations

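The summed CPM of the lists was not tested between groups. The 8 members summed to 759 and 829 CPM in whole oocytes at 18 cycles, against 1479 and 1664 at 10 cycles and 1479 and 1466 at 14 cycles. In the fractions they summed to 745 and 978 CPM (1/2), 988 and 987 (1/4), and 1164 and 1555 (1/8). The members' sum was thus low in 1/2 as well as in the 18-cycle whole oocytes. This order holds for CPM, and all 8 members had positive estimates at 18 against 10 cycles with ERCC size factors. The 13 checkpoint effectors and cell death genes summed to 1103 and 1286 CPM at 18 cycles, against 537 and 630.5 at 10 cycles and 560 and 530 at 14 cycles. In the fractions they summed to 776 and 969.8 CPM (1/2), 1037 and 835 (1/4), and 498 and 622 (1/8). Cdc25a was the most abundant of the 13 in the 18-cycle whole oocytes, with 464 and 705 CPM.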
